A study of Mus musculus with 28 samples.

Results

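The 9 libraries described here are germ-free (GF) and specific-pathogen-free (SPF) mice whose gut T cells had responded to an antibody against CD3 (aCD3). They are 3 of the 6 GF aCD3 libraries, those with at least 100 TPM (transcript abundance as a share of the library total) of Lag3, set against all 6 SPF aCD3 libraries, out of 28 libraries in all. Members were selected on their measured Lag3: GF replicates M1, M2 and M5 held 498, 452 and 527 TPM, while the GF replicates left out, F1, M3 and M4, held 9.59, 17.0 and 12.3 TPM. No value lay near the threshold, since 452 TPM in M2 was the lowest inside it and 17.0 TPM in M3 the highest outside. All 6 SPF aCD3 libraries were above it, at 505 to 825 TPM. The comparison asks how the flora shapes the response once it has occurred. Because measured values of these libraries chose the members, the differences between them are given as a description, with no p-value.

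Every library came from CD4+ T cells of the small intestinal lamina propria of mice that carry T-bet-ZsGreen, a fluorescent reporter of the transcription factor T-bet, and the cells were sorted as live, CD45+, CD90.2+, TCRb+ and CD4+. SPF mice have a gut flora free of listed pathogens and GF mice have none. The mice of both kinds received aCD3, an antibody that triggers T cells of any specificity through their receptor complex, or an isotype control antibody. The study holds 10 GF isotype and 6 SPF isotype libraries as controls. The Lag3-high GF libraries are all from males, and SPF aCD3 has 3 female and 3 male libraries. GF and SPF libraries carry separate ranges of sample numbers in the table's column names, 7 to 12 in SPF aCD3 and 31 to 53 in Lag3-high GF aCD3, so the flora and whatever these numbers follow cannot be told apart. What they stand for is not given in the sources used here. Age, dose and time after injection were not used here, and nothing in the labels says whether replicates were separate mice, so spread between libraries may be partly technical.

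Lag3 encodes an inhibitory receptor that strongly activated T cells put on their surface, and with the cytokine interleukin 10 it marks type 1 regulatory (Tr1) cells. Helper T cells of the gut take on different programmes: Th17 cells make interleukins 17 and 22, which act on the epithelium, and depend in large part on gut microbes, while type 2 cells are run by the transcription factor GATA3 and make interleukins 4, 5 and 13. An injection of aCD3 can drive T cells of all these kinds into activation and division at once.

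The members held between 7804972 and 12273509 reads in genes, and the whole series between 6765608 and 17860240. At that depth 3 reads of a gene of 10 kb were worth 0.128 to 0.220 TPM in these 9 libraries. Differences are between means of log2(TPM + 1), a scale that understates the change of low genes. Of the 13 T cell receptor complex and CD4 genes none was called by the rule given further on, beside 0.346% of all genes called higher and 0.228% lower. Their summed level was 2528 to 2705 TPM in Lag3-high GF against 2438 to 2750 TPM in SPF aCD3. All GF libraries lay below all SPF libraries in 3 of the 13 and above them in 1, beside 1.31% and 14.2% of all genes. Fewer cells of a type and less RNA per cell cannot be told apart in such bulk libraries.

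**Figure D1:**
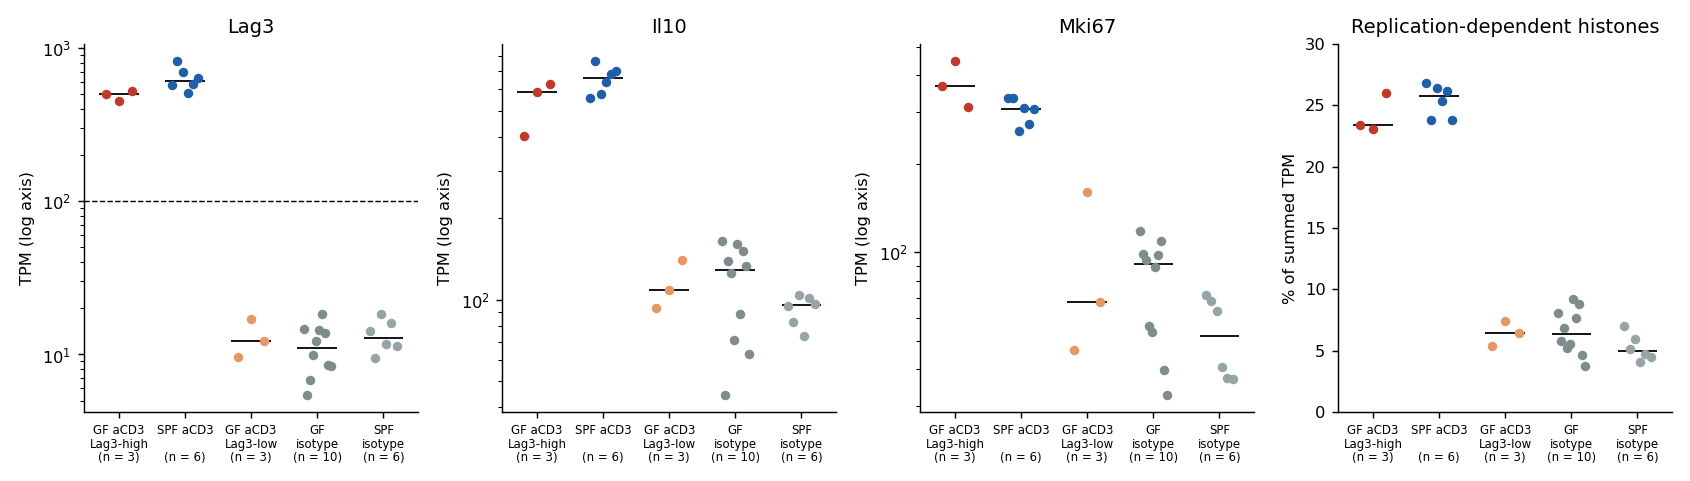
Lag3, Il10 and Mki67 in TPM on a log axis and the share of summed TPM in replication-dependent histone genes (percent), by library. Points are libraries, bars are medians and the dashed line is the threshold of 100 TPM that chose the members. The 3 chosen GF libraries lie with the SPF aCD3 libraries in all 4 panels, for Lag3 by the rule that chose them. The 3 GF aCD3 libraries below the threshold lie with the isotype libraries or, for Mki67 in 1 library, just above them.

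With Lag3 set aside as the gene of the rule, the libraries it chose overlapped SPF aCD3 in Il10, the other Tr1 gene. Il10 was 403, 588 and 630 TPM in GF M1, M2 and M5, and ran from 556 through a median of 660 to 766 TPM in SPF aCD3. Both groups overlapped, with M1 below every SPF library (difference -0.29). The GF aCD3 libraries left out held 93.5, 109 and 141 TPM of Il10, within the range of 44.3 to 165 TPM in GF isotype.

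Most division genes overlapped as well. Mki67, a protein of dividing cells, was 368, 447 and 311 TPM in GF M1, M2 and M5 and 258 to 335 TPM in SPF aCD3, with overlap (difference 0.30). Replication-dependent histone genes, 69 in number, took 23.1% to 25.97% of summed TPM in Lag3-high GF and 23.8% to 26.8% in SPF aCD3. In the GF aCD3 libraries left out they took 5.39% to 7.46%. None of 27 S phase genes and none of 27 mitosis genes was called, beside 0.346% of all 12713 genes called higher and 0.228% lower. The median difference was 0.11 and 0.12 against 0.14 over all genes. Of the 27 mitosis genes 4 (Cdk1, Bub1b, Kif11 and Ttk) were above SPF in every Lag3-high GF library, by 0.20 to 0.36. That is near the share over all genes, 14.2%. After scaling by median of ratios 1 of the 27 was above. In SPF mice, where the response can be tested, 26 of the S phase and 27 of the mitosis genes rose with aCD3 (limma, adjusted p below 0.05). The share of all genes that rose was 13.7%.

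Ifng, Tbx21, Foxp3 and Il2 also overlapped. Ifng, the Th1 cytokine, was 224, 255 and 243 TPM in GF M1, M2 and M5, compared with 247 to 358 TPM in SPF aCD3, a difference of -0.30. Tbx21, which encodes T-bet, was 54.8, 56.2 and 49.4 TPM against 39.0 to 55.8 TPM, a difference of 0.18. Foxp3, the regulator of regulatory T cells, was 39.5, 65.7 and 39.2 TPM against 27.3 to 44.5 TPM, a difference of 0.42. Il2, the T cell growth factor, was low on both sides, at 1.54, 0.545 and 0.637 TPM in Lag3-high GF and 0 to 0.730 TPM in SPF aCD3, while the isotype libraries held 10.0 to 21.9 TPM. Of 16 Tr1 and co-inhibitory genes, 2 were called, Cd226 and Tox, both higher in GF, beside 0.346% of all genes called higher. The list's median difference was -0.06 against 0.14 over all genes.

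Across genes, the response of the Lag3-high GF libraries (against GF isotype) followed that of SPF mice (against SPF isotype), and these 2 responses share no library. The GF libraries were chosen for high Lag3, so this agreement follows in part from that rule. Pearson's r across 12713 genes was 0.836, Spearman's rho 0.830 and the slope of the GF on the SPF response 0.770. Genes are not replicates, so no p is given. Of 566 genes that rose by at least 1 in SPF mice, 554 (97.9%) had the same sign in GF and 428 (75.6%) were past 1 there, with medians of 1.66 in SPF and 1.46 in GF. Of 1386 genes that fell by at least 1 in SPF mice, 1370 (98.8%) had the same sign and 874 (63.1%) were past 1, with medians of -1.27 and -1.10. Over all 12713 genes the median response was -0.336 in SPF and -0.335 in GF. The share of all genes with the same sign was not counted. Single libraries gave r of 0.711 for M1, 0.772 for M2 and 0.780 for M5. In the SPF test itself, 13.7% of all genes were higher and 49.6% lower with aCD3, a split that scaling by median of ratios moved from 1744 higher and 6308 lower to 3772 and 3678.

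**Figure D2:**
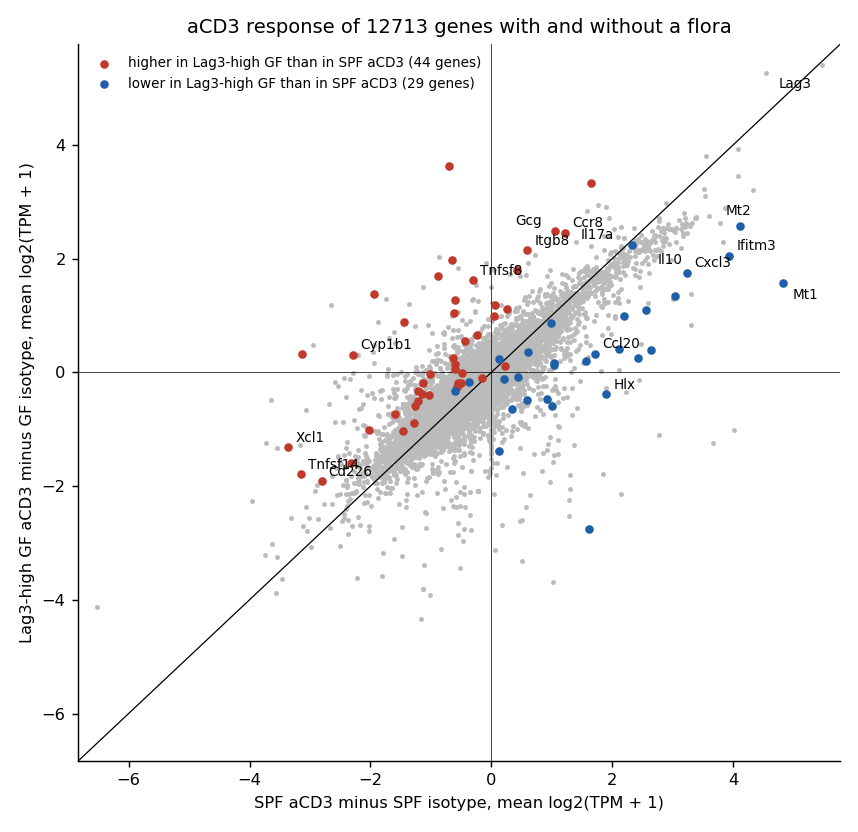
Response to aCD3 in Lag3-high GF (vertical, 3 aCD3 against 10 isotype libraries) and in SPF mice (horizontal, 6 against 6), as differences of mean log2(TPM + 1); each point is a gene and the diagonal marks equal responses. Both responses rose together, with a fitted slope of 0.770 across genes. Mt1, Ifitm3, Cxcl3 and Hlx lie below the diagonal and Xcl1, Tnfsf8, Itgb8 and Cyp1b1 above it. Lag3 is labelled as the gene that chose the GF libraries, so its place and the agreement across genes follow in part from that rule.

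Against this shared background a small number of genes separated the groups. A gene was called where the 3 GF libraries all lay above, or all below, the 6 SPF libraries and the means differed by at least 1. By that rule 44 genes were higher in GF (0.346% of those measured) and 29 lower (0.228%). Without the minimum difference, 1809 genes (14.2%) had all GF libraries above and 166 (1.31%) all below, and the median of all genes was 0.14 higher in GF. With libraries scaled by median of ratios that median was 0, the separated genes numbered 599 above and 503 below, and 32 were called higher and 60 lower, 31 and 29 of them shared with the counts above. One called gene, Ddx3y, is Y-linked, and SPF aCD3 includes females.

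**Figure D3:**
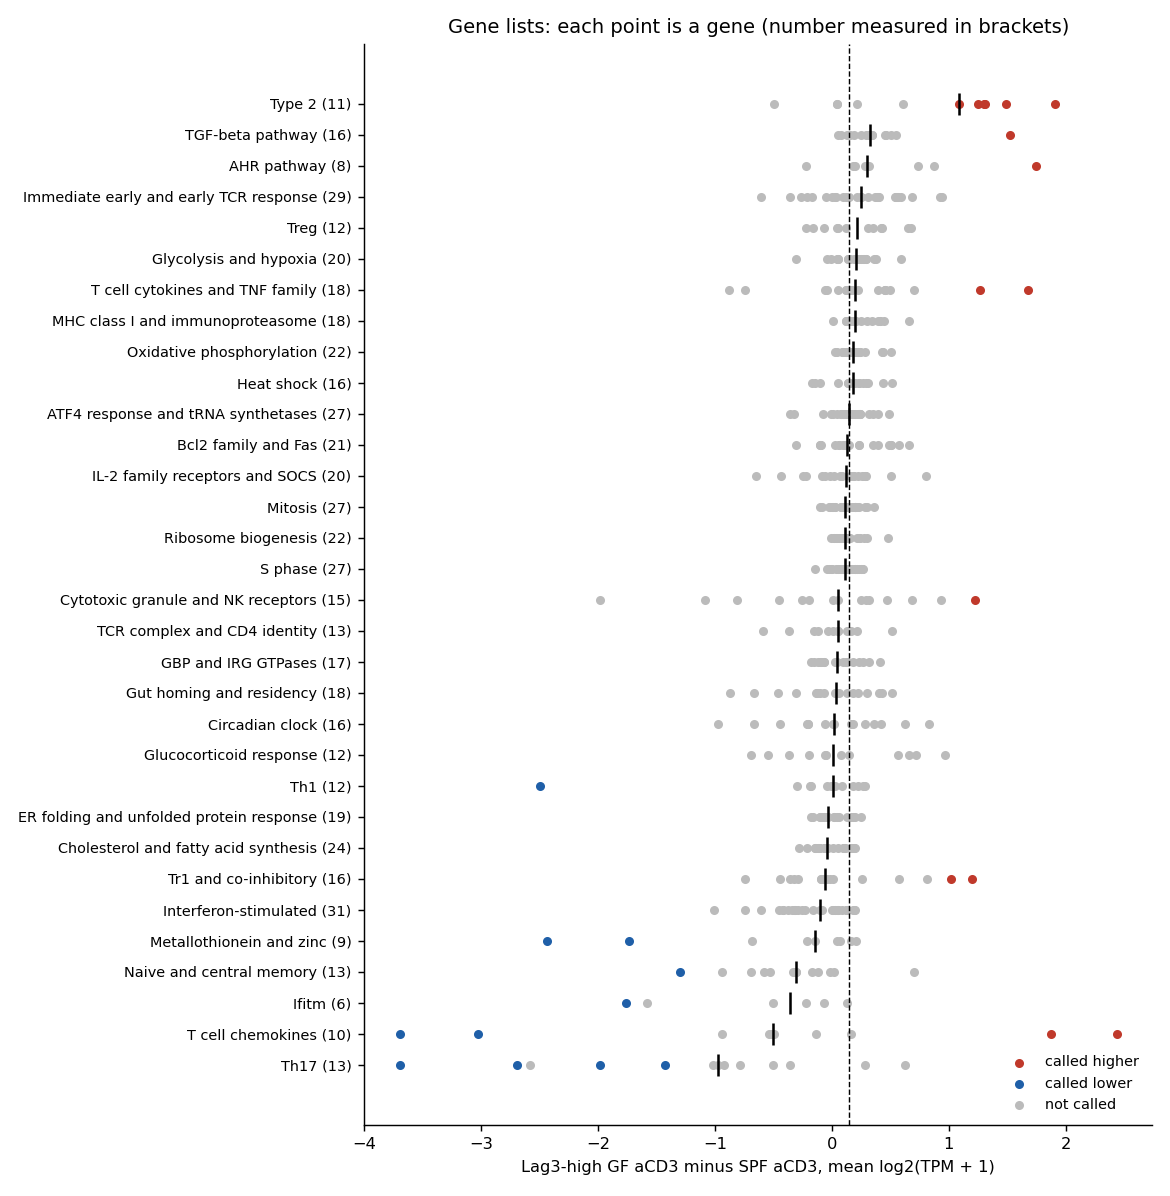
Difference of Lag3-high GF aCD3 and SPF aCD3 in mean log2(TPM + 1) for the measured genes of each list. Points are genes, black ticks the list's median and the dashed line the median of all genes (0.14). The type 2 list has the highest median (1.08) and the Th17 list the lowest (-0.97).

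The Th17 genes were the lowest group in the Lag3-high GF libraries. Of 13 measured, 4 were called lower and none higher, beside 0.228% and 0.346% of all genes. The median difference was -0.97 against 0.14 over all genes. Il17a was 83.8, 66.1 and 75.1 TPM in GF M1, M2 and M5, and ran from 101 through 391 to 478 TPM in SPF aCD3. The GF libraries were close to one another and all below the lowest SPF library (75.0 ± 8.8, SD, n = 3, against 340 ± 160, n = 6; difference -1.98). Il17a lies on chromosome 1 (mm10, 20730905 to 20734496). Its neighbour Il17f, which encodes a related cytokine, was 2.88, 0.801 and 8.25 TPM in GF against 6.997 to 40.7 TPM in SPF, and M5 overlapped (difference -2.58).

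With aCD3, Il17a rose by 2.32 (SE 0.30, limma, adjusted p = 4.34e-05) in SPF mice, where the isotype libraries held 45.6 to 76.6 TPM. Lag3-high GF stood 2.24 above GF isotype. GF isotype libraries held 0.732 to 67.2 TPM with a median of 17.7. The 66.1 to 83.8 TPM of the Lag3-high GF libraries overlapped the range of SPF isotype.

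Il22, whose product drives antimicrobial defence in the epithelium, was 2.31, 3.56 and 7.09 TPM in GF M1, M2 and M5 and 10.0 through 35.1 to 58.7 TPM in SPF aCD3 (difference -2.70). All GF libraries lay below all SPF libraries. It did not pass the test with aCD3 in SPF mice (log2 change 0.13, limma, adjusted p = 0.799), and in isotype libraries it was 0.690 to 6.95 TPM in GF and 14.1 to 47.0 TPM in SPF. Its near-identical copy Iltifb can share reads with it, so the level of each is uncertain. Il17re, the receptor subunit for interleukin 17C, was 0.245, 0 and 0.278 TPM in GF against 0.693 to 4.30 TPM in SPF, where 0 in M2 allows up to 0.119 TPM. Il23r, the receptor for the cytokine that sustains Th17 cells, overlapped at 1.36 to 1.95 TPM against 1.88 to 5.78 TPM (difference -0.92), as did Ccr6, the receptor for CCL20, at 1.60 to 4.56 TPM against 2.06 to 6.68 TPM (difference -0.79). SPF replicate M2 had the lowest Il17a of its group, and without it 8 of the 13 genes were called lower.

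Ccl20 and Cxcl3, a pair of chemokine genes, had the largest deficits in the Lag3-high GF libraries among the genes named by rule. That order holds for the pseudocount of 1: with 0.1, Hlx (-4.37), Reg3g (-3.73) and Gja1 (-3.71) passed Cxcl3 (-3.44), and with 5, Mt1 (-2.17) did (Cxcl3 -2.09). CCL20 draws cells with the receptor CCR6, Th17 cells among them, and CXCL3 draws neutrophils. The 250 bases before the RefSeq start of each gene (build GRCm38.p6, plus strand) are shown for these low levels, with the match that each holds to the motif of the factor NF-kB. Capitals mark the match, which is GGG, any 2 bases and TTTCC, searched on both strands.
Ccl20 (chr1:83116516-83116765): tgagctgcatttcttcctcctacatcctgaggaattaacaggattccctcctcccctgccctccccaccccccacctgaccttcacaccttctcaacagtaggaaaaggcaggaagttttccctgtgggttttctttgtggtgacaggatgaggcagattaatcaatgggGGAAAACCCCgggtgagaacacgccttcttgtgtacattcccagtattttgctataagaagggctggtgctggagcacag
Cxcl3 (chr5:90785851-90786100): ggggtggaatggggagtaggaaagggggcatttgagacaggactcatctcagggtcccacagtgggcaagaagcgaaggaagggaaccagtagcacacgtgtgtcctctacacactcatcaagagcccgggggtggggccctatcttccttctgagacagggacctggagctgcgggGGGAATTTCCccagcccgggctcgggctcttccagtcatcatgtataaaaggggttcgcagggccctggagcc
The match began 80 bases before the start in Ccl20, on the minus strand, and 73 bases before it in Cxcl3, on the plus strand. Of 32851 mouse promoter windows of 250 bases, 464 (1.41%) held the motif. A match describes the letters of the window, and no binding was measured.

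Ccl20 was listed at 0 in GF M1 and M2, which allows up to 0.917 and 0.594 TPM there, and was 7.23 TPM in M5. SPF aCD3 ran from 8.90 through 30.1 to 40.5 TPM, so all GF libraries were below, M5 only just (difference -3.69). Cxcl3 was 1.47, 2.87 and 3.02 TPM in GF against 17.3 through 28.6 to 37.6 TPM in SPF, with a wide gap between the groups (difference -3.03). With aCD3, Cxcl3 rose by 3.24 in SPF mice (limma, adjusted p = 5.80e-05) and Ccl20 by 1.72 (limma, adjusted p = 0.000646). Lag3-high GF stood 1.75 above GF isotype for Cxcl3, which was listed at 0 in all 10 GF isotype libraries, and 0.32 above it for Ccl20.

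Xcl1 and Ccl1, chemokine genes of another kind, went the other way. XCL1 attracts the dendritic cells that cross-present antigen, and Xcl1 was 87.8, 53.1 and 16.5 TPM in M1, M2 and M5 of GF, while SPF aCD3 held 4.59 to 10.2 TPM (difference 2.44). The GF libraries spread widely, with M5 nearest to SPF, and none overlapped. In SPF mice Xcl1 fell by 3.36 with aCD3 (limma, adjusted p = 6.92e-08). It was 68.1 to 109 TPM in SPF isotype and 72.9 to 147 TPM in GF isotype. Replicate M1 of GF therefore held the isotype level of Xcl1 beside a Lag3 of 498 TPM. Ccl1, which encodes the ligand of CCR8, was 13.8, 10.7 and 11.7 TPM in GF against 0.943 to 6.16 TPM in SPF (difference 1.87). Of the 10 chemokine genes measured, 2 were thus called higher and 2 lower, Ccl20 being counted in this list and in that of Th17 genes. Over all genes 0.346% were called higher and 0.228% lower.

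Type 2 genes were the highest group in the Lag3-high GF libraries. Of 11 measured, 6 were called higher and none lower, beside 0.346% and 0.228% of all genes. The median difference was 1.08 against 0.14 over all genes. After median of ratios 5 were called and the median was 0.91, against 0 over all genes. Gata3, the master regulator of type 2 cells (chromosome 2, 9857078 to 9878600), was 70.1, 67.3 and 35.3 TPM in GF M1, M2 and M5 and 17.9 through 22.01 to 24.99 TPM in SPF aCD3. The groups did not overlap, and M5 was again nearest to SPF (57.6 ± 19, SD, n = 3, against 21.8 ± 2.8, n = 6; difference 1.31). In SPF mice Gata3 fell by 1.21 with aCD3 (limma, adjusted p = 1.62e-06), and the SPF isotype libraries held 42.3 to 64.8 TPM. Lag3-high GF stood 0.50 below GF isotype, with M1 and M2 inside its range of 55.6 to 110 TPM and M5 below.

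The type 2 cytokine genes sit together on chromosome 11 and were low in every group. Il4 (53612461 to 53618665) was 11.6, 9.28 and 4.63 TPM in GF M1, M2 and M5, compared with 1.11 to 4.22 TPM in SPF aCD3 (difference 1.49). Il13 (53631323 to 53634702) was 8.03, 3.38 and 2.96 TPM against 0 to 1.76 TPM (difference 1.91). Il5 (53720794 to 53725103) was 3.23, 2.21 and 1.39 TPM against 0 to 0.991 TPM (difference 1.31), and was listed at 0 in 3 SPF libraries, which allows up to 0.435 TPM. For all of these cytokines GF M1 was the highest of the 9 libraries and the SPF libraries lay below every GF library. None of them passed the test of the aCD3 response in SPF mice, with limma adjusted p of 0.0943 for Il4, 0.118 for Il13 and 0.875 for Il5. These levels are low, and with a pseudocount of 5 in place of 1 Gata3 alone of the 6 genes was called.

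Ccr8 and Epas1 complete the 6 called genes of the type 2 list. Ccr8, the receptor of CCL1, was 88.9, 82.9 and 55.4 TPM in M1, M2 and M5 of GF, while SPF aCD3 held 21.8 to 52.2 TPM (difference 1.08). It overlapped after median of ratios, and its difference missed the minimum of 1 without GF M1 (0.96), SPF M2 (0.96) or SPF M3 (0.96). Ccr8 rose with aCD3 in SPF mice by 1.22 (limma, adjusted p = 0.000173), and Lag3-high GF stood 2.45 above GF isotype. Epas1, which encodes HIF-2 alpha, was 9.22, 11.5 and 9.48 TPM against 2.12 to 4.42 TPM (difference 1.25). Outside the list, Il17rb, the receptor for interleukin 25, was 17.8, 19.8 and 14.5 TPM against 2.47 to 11.2 TPM (difference 1.51). Not all genes of the list separated the groups: Il1rl1, the receptor for interleukin 33, overlapped at 3.19 to 8.19 TPM against 4.05 to 7.66 TPM, and Areg, an epithelial growth factor, at 45.3 to 92.5 TPM against 84.5 to 104 TPM.

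**Figure D4:**
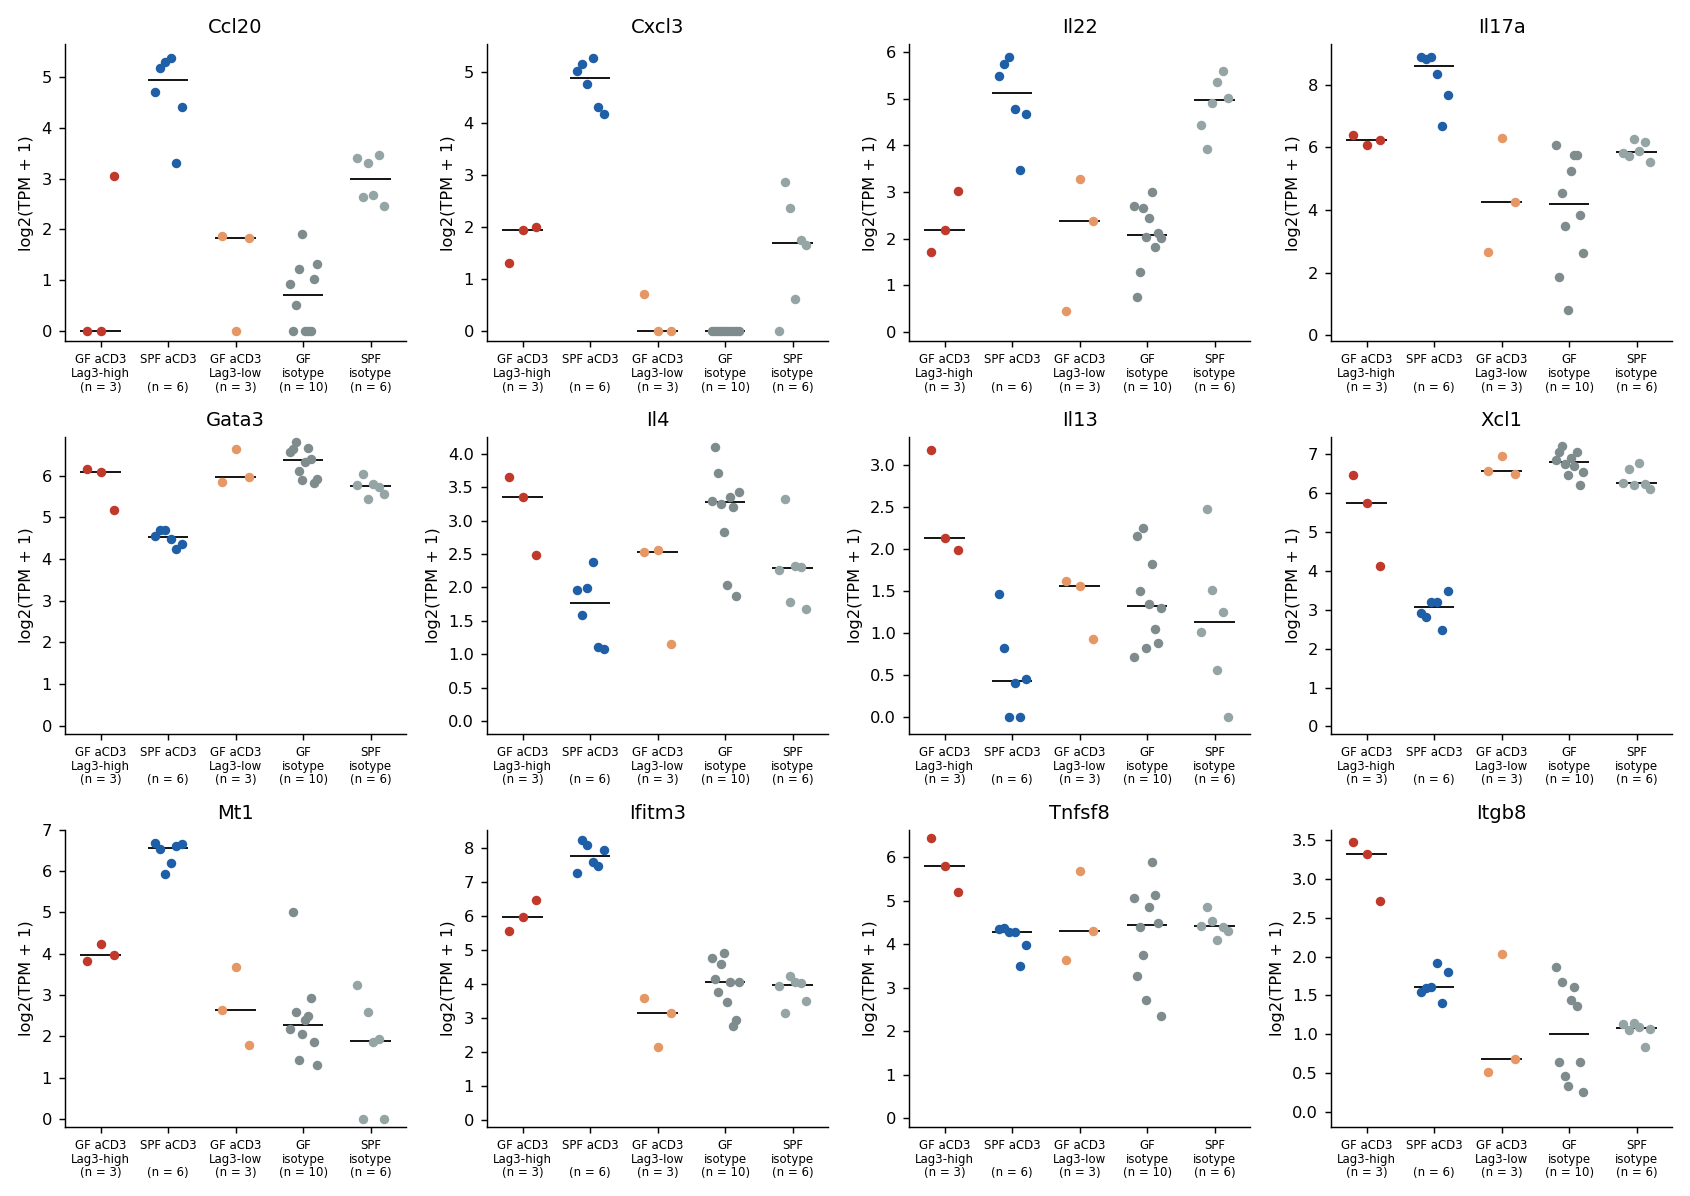
Levels of 12 genes as log2(TPM + 1) in each library; points are libraries and bars are medians. In the 3 GF libraries chosen by Lag3, Ccl20, Cxcl3, Il22, Il17a, Mt1 and Ifitm3 lie below all 6 SPF aCD3 libraries, and Gata3, Il4, Il13, Xcl1, Tnfsf8 and Itgb8 lie above them.

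The metallothionein genes Mt1 and Mt2, which encode small proteins that bind zinc and copper, were lower in GF. They are neighbours on chromosome 8 (Mt2 from 94172618 to 94173567, Mt1 from 94179089 to 94180327). Mt1 was 13.04, 17.7 and 14.6 TPM in GF M1, M2 and M5 and 59.7 through 93.8 to 101 TPM in SPF aCD3 (15.1 ± 2.4, SD, n = 3, against 86.8 ± 17, n = 6; difference -2.43). Mt2 was 9.28, 10.0 and 11.3 TPM against 20.7 to 53.3 TPM (difference -1.73). All GF libraries were below all SPF libraries for both genes, by a wide gap for Mt1. Mt1 rose by 4.83 with aCD3 in SPF mice (limma, adjusted p = 1.19e-05), where the isotype libraries held 0 to 8.39 TPM. Lag3-high GF stood 1.57 above GF isotype. No other of the 9 metallothionein and zinc genes was called, beside 0.346% of all genes called higher and 0.228% lower. Slc30a1, the zinc exporter, was 9.08 to 10.4 TPM against 9.67 to 13.5 TPM. Mtf1, the metal-sensing transcription factor, was 3.45 to 4.40 TPM against 2.73 to 4.32 TPM.

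Ifitm3, an interferon-inducible membrane protein that blocks virus entry, was 45.8, 61.8 and 87.9 TPM in GF M1, M2 and M5, compared with 151 through 217 to 300 TPM in SPF aCD3 (difference -1.76). All GF libraries were below all SPF libraries. Its neighbour Ifitm1 had the same direction at 1.63 to 3.81 TPM against 2.95 to 21.4 TPM, with overlap in M5, while Ifitm2 overlapped fully at 18.3 to 82.1 TPM against 29.1 to 50.1 TPM. Ifitm3 rose by 3.94 with aCD3 in SPF mice (limma, adjusted p = 1.07e-07). In SPF mice 20 of 31 interferon-stimulated genes measured outside this family rose with aCD3, beside 13.7% of all genes. Between Lag3-high GF and SPF aCD3 none of the 31 was called, beside 0.346% of all genes called higher and 0.228% lower. Their median difference was -0.10 against 0.14 over all genes. The nearest to the threshold was Oasl2 at 3.83 to 4.79 TPM against 3.73 to 18.5 TPM (difference -1.01), which overlapped.

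Of 18 T cell cytokine and tumour necrosis factor family genes measured, Tnfsf8 and Tnfsf14 were called higher and none lower, beside 0.346% of all genes called higher, and the list's median difference was 0.20 against 0.14 over all genes. Tnfsf8, which encodes CD30 ligand, was 85.3, 54.4 and 35.9 TPM in M1, M2 and M5 of GF, while SPF aCD3 held 10.3 to 19.7 TPM (difference 1.68). It did not pass the test of the SPF response (log2 change -0.31, limma, adjusted p = 0.0501), while Lag3-high GF stood 1.62 above GF isotype. Tnfsf14, the ligand LIGHT, was 17.5, 12.7 and 7.66 TPM against 2.77 to 5.92 TPM (difference 1.27). From the Tr1 and co-inhibitory list, Cd226, an activating receptor, was 21.8, 19.4 and 13.6 TPM against 6.41 to 7.92 TPM (difference 1.20), and Tox, a chromatin factor of chronically stimulated T cells, 13.8, 10.9 and 6.27 TPM against 3.66 to 5.60 TPM (difference 1.02). With a pseudocount of 5 the calls of Tnfsf14, Cd226 and Tox were lost. That of Tox was also lost after median of ratios, with male SPF libraries alone, and without GF M1 (0.79), GF M2 (0.95), SPF F1 (0.99), SPF F3 (0.98) or SPF M2 (0.99). In SPF mice Tnfsf14 fell by 3.15 and Cd226 by 2.81 with aCD3 (limma, adjusted p = 5.19e-08 and 9.36e-09). Lag3-high GF stood 1.79 and 1.91 below GF isotype for them.

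Other genes named by rule fell outside the lists of T helper programmes. Itgb8, an integrin subunit that activates TGF-beta, was 10.1, 9.05 and 5.56 TPM in GF M1, M2 and M5. SPF aCD3 held 1.64 to 2.79 TPM (difference 1.53). Itgb8 was the single called gene of 16 in the TGF-beta pathway, beside 0.346% of all genes called higher. Without the minimum difference, 8 of the 16 had all GF libraries above SPF, beside 14.2% of all genes. After median of ratios 2 of the 16 did. Klrg1, an inhibitory receptor of effector and regulatory cells, was 9.95, 9.53 and 5.29 TPM against 2.28 to 3.84 TPM (difference 1.23). Cyp1b1, a target of the aryl hydrocarbon receptor, was 11.7, 13.4 and 9.70 TPM against 2.05 to 5.65 TPM (difference 1.75). Cyp1b1 fell by 2.29 with aCD3 in SPF mice (limma, adjusted p = 2.42e-06) and was 0.31 above isotype in Lag3-high GF. The receptor gene Ahr itself overlapped, at 64.5 to 78.7 TPM against 49.03 to 69.3 TPM.

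Sema6d, a semaphorin, was 11.6, 7.43 and 1.32 TPM in M1, M2 and M5 of GF, while SPF aCD3 held 0.176 to 0.661 TPM (difference 2.19). Chdh, a choline oxidase of mitochondria, was 10.3, 7.18 and 4.75 TPM against 0.732 to 3.64 TPM (difference 1.54). Calca, the precursor of calcitonin and its related peptide, was 6.70, 5.74 and 4.79 TPM against 0 to 3.06 TPM (difference 1.47). Tnp2, a sperm chromatin protein, was 3.71 to 6.61 TPM against 0 to 2.48 TPM, where 0 allows up to 2.61 TPM, so its difference of 2.07 lay near the limit of detection.

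Among the lower genes, Hlx, a homeobox partner of T-bet in Th1 cells, was 0, 0.356 and 0.499 TPM in GF M1, M2 and M5, compared with 3.78 through 6.30 to 8.30 TPM in SPF aCD3 (difference -2.49). It rose by 1.90 with aCD3 in SPF mice (limma, adjusted p = 3.62e-06). On the Th1 list it was the single called gene of 12, beside 0.228% of all genes called lower. Gja1, the gap junction protein connexin 43, was 0, 0.363 and 1.53 TPM against 3.91 to 8.07 TPM (difference -2.10). Igfbp4, which binds insulin-like growth factors, was 2.06, 1.58 and 0.117 TPM against 3.29 to 22.01 TPM (difference -2.02). Ermn was 0.947, 1.90 and 2.84 TPM against 5.21 to 20.1 TPM (difference -1.92). S1pr1, the receptor that lets T cells leave tissue, was 41.4, 28.9 and 17.8 TPM against 54.8 to 102 TPM (difference -1.30). It was the single called gene of 13 on the naive and central memory list, and without GF M5 its difference (-0.99) missed the minimum of 1. Its regulator Klf2 lay below SPF in every library at 88.9 to 202 TPM against 217 to 396 TPM, with a difference of -0.94 that missed the minimum.

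A pair of called genes is better known from the epithelium than from T cells. Reg3g, an antimicrobial lectin, was 0, 0.913 and 1.03 TPM in M1, M2 and M5 of GF, while SPF aCD3 held 1.31 to 17.3 TPM (difference -2.29). Gcg, the glucagon precursor of enteroendocrine cells, was 16.5, 14.9 and 3.73 TPM against 0.226 to 3.29 TPM (difference 2.19). The summed level of 19 epithelial genes was 8.98 to 11.7 TPM in Lag3-high GF and 8.81 to 47.8 TPM in SPF aCD3. Of 16 measured, 2 were called lower, Reg3g and Krt18, beside 0.228% of all genes. The absorptive cell genes Fabp1, Alpi and Apoa4 were at 0 in all 9 libraries. Of other enteroendocrine genes Pyy, Neurod1 and Sct were at 0 in all 9, and Chga was 0.283 to 0.860 TPM in GF and 0.124 to 0.593 TPM in SPF. Chgb and Cck were at 0 in all 3 GF libraries and reached 0.044 and 0.406 TPM in SPF. The part of epithelial RNA in Reg3g was not tested.

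Markers of other cells gave these summed levels, first in Lag3-high GF and then in SPF aCD3. Myeloid genes, 17 in number, summed to 45.5 to 69.8 and 57.6 to 149 TPM, most of it Cd68, with C1qa and C1qb at 0 in all 9 libraries. Natural killer and innate lymphoid genes summed to 48.8 to 55.1 and 49.9 to 60.6 TPM, and B and plasma cell genes to 17.4 to 24.7 and 15.1 to 23.3 TPM. Stromal genes summed to 4.16 to 5.57 and 3.55 to 6.71 TPM, erythroid genes to 1.06 to 1.90 and 0.716 to 1.28 TPM, and pancreatic acinar genes to 4.70 to 60.1 and 3.37 to 32.9 TPM. The genes of CD8 and gamma delta T cells summed to 9.61 to 13.01 and 9.75 to 23.8 TPM. No gene of these lists other than the epithelial ones was called. Over all genes 0.346% were called higher and 0.228% lower, so short lists would hold few calls in any case.

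The 3 GF libraries differed among themselves in how far they stood from SPF. Among the 34 higher genes that remain without unnamed models, small RNAs, histones and sex-linked genes, M5 was the GF library nearest to SPF in 29, M1 in 3 and M2 in 2. Among 28 lower genes M5 was nearest in 22, M1 in 5 and M2 in 1. Replicate M5 also carries the later sample number, 53, against 31 and 32. Without M5, 121 genes were called higher and 77 lower, and of the genes called with it 43 of the higher and 27 of the lower remained. Pairs of libraries gave a Pearson r of log2(TPM + 1) of 0.954 to 0.964 within Lag3-high GF, 0.957 to 0.973 within SPF aCD3 and 0.949 to 0.965 between these groups. Lag3-high and left-out GF aCD3 libraries gave 0.895 to 0.916.

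Whether GF and SPF differ without aCD3 could be tested in the isotype libraries, which the Lag3 rule did not use. These libraries carry sample numbers 25 to 51 in GF and 1 to 6 in SPF, so flora and number cannot be told apart here either. There 13.1% of all genes were higher in GF and 1.38% lower (limma with sex as a covariate, adjusted over 12713 genes). Scaling by median of ratios turned that balance, from 1662 higher and 175 lower to 158 and 228. Of the 29 genes lower in Lag3-high GF, 9 were also lower in GF isotype: Ackr3, Aqp3, Ccl20, Cxcl3, Emp1, Esm1, Gja1, Il17re and Il22. Plac8 was higher there, and 19 passed in neither direction. Il22 differed by -2.79 (SE 0.29, limma, adjusted p = 0.000233), Ccl20 by -2.30 (SE 0.29, limma, adjusted p = 0.000641) and Gja1 by -2.29 (SE 0.31, limma, adjusted p = 0.000923). The 7 of 13 Th17 genes that passed in isotype libraries were all lower in GF, among them Il23r (-1.75, limma, adjusted p = 0.000479), Ccr6 (-1.24, adjusted p = 0.0124) and Il1r1 (-1.29, adjusted p = 0.00118). Il17a had the same direction and did not pass (-1.90, SE 0.69, limma, adjusted p = 0.0742), though it did without GF isotype replicate F1 (adjusted p = 0.0374).

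For other lower genes the isotype libraries showed no difference past the threshold. Mt1 differed by 0.82 (SE 0.55, limma, adjusted p = 0.314), Mt2 by -0.20 (adjusted p = 0.855), Ifitm3 by 0.12 (adjusted p = 0.778), Hlx by -0.21 (adjusted p = 0.532) and Reg3g by -0.13 (adjusted p = 0.854). These genes were also low in both isotype groups, at most 31.2 TPM for Mt1 and 29.05 TPM for Ifitm3. Whether the aCD3 effect on a gene differs between GF and SPF was not tested, since the GF libraries were chosen by their response.

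Of the 44 genes higher in Lag3-high GF, 10 were also higher in GF isotype, beside 13.1% of all genes. None was lower, and 34 did not pass. The median isotype difference of the 44 was 0.38 against 0.15 over all genes, and 0.25 against 0.01 after median of ratios. The 10 include Gata3 (0.60, SE 0.15, limma, adjusted p = 0.0207), Epas1 (0.85, adjusted p = 0.0255), Il17rb (1.20, adjusted p = 0.0304), Cd226 (0.30, adjusted p = 0.0306), Tox (0.39, adjusted p = 0.0399) and Calca (1.43, adjusted p = 0.00763). After median of ratios Calca alone of the 10 passed (1.27, limma, adjusted p = 0.0283), while Gata3 (0.44, adjusted p = 0.131), Il17rb (1.05, adjusted p = 0.125) and the others did not, and the cause was not tested. Over all 12713 genes 158 were higher and 228 lower after median of ratios. Of the lower genes 8 of the 9 still passed after it. Xcl1 (0.40, limma, adjusted p = 0.0750), Il4 (0.83, adjusted p = 0.0683), Tnfsf8 (-0.24, adjusted p = 0.739), Ccr8 (-0.15, adjusted p = 0.814) and Itgb8 (-0.02, adjusted p = 0.965) did not pass with or without it.

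**Figure D5:**
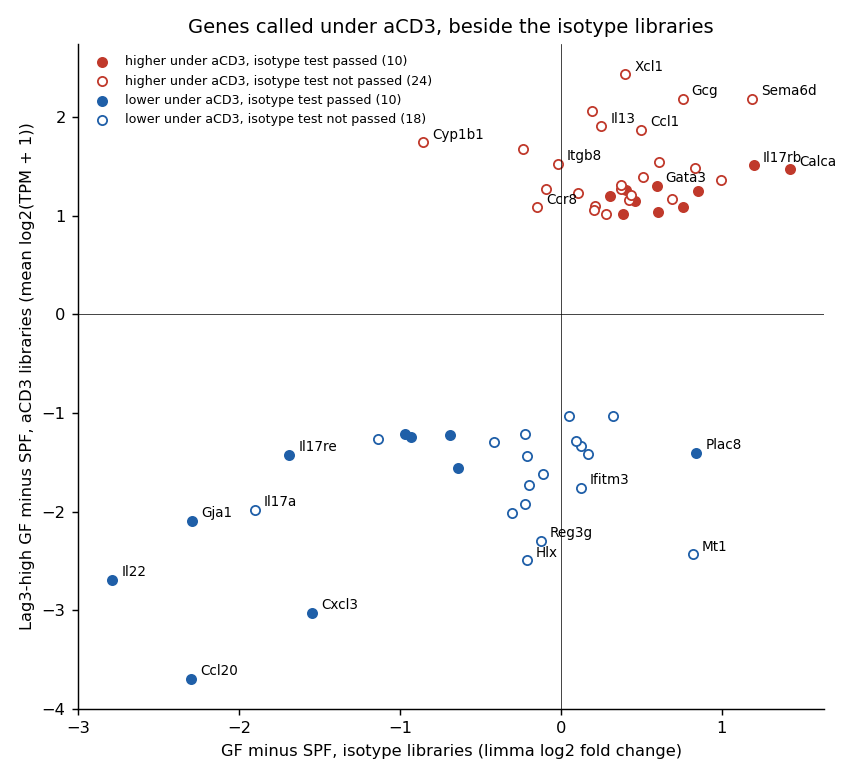
The 62 called genes with a named model outside small RNAs, histones and sex-linked genes, by their difference in aCD3 libraries (vertical, Lag3-high GF minus SPF) and in isotype libraries (horizontal, GF minus SPF, limma log2 fold change). Filled points passed the isotype test. Il22, Ccl20, Gja1, Cxcl3 and Il17re lie far to the lower left, while Mt1, Ifitm3, Hlx and Xcl1 are open points near the middle of the horizontal axis.

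Other cells and stress genes also differed between the isotype groups, where 1.38% of all genes were lower in GF and 13.1% higher. Of 9 stromal genes measured 7 were lower in GF isotype, with summed levels of 8.76 to 17.8 TPM against 16.8 to 63.9 TPM in SPF isotype, and of 7 B and plasma cell genes 2 were lower. Natural killer and innate lymphoid genes had 2 of 9 lower, at 79.8 to 162 TPM against 121 to 150 TPM. Of 16 heat shock genes 5 were lower in GF isotype, and Hspa1a was 146 to 1704 TPM against 2639 to 5451 TPM. Their part in the isotype differences was not tested. In the aCD3 libraries the stromal sums overlapped and Hspa1a was 154 to 351 TPM in Lag3-high GF against 158 to 451 TPM in SPF.

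Compared as labelled, with all 6 GF aCD3 against all 6 SPF aCD3 libraries, 33.5% of genes were higher and 2.33% lower in GF (limma), a split that median of ratios moved from 4254 higher and 296 lower to 413 and 455. This comparison mixes responding and non-responding GF libraries, and its counts rest on single libraries: without GF replicate F1 it called 46 genes in place of 4550. Hlx (-2.24, limma, adjusted p = 0.0063), Cxcl3 (-3.75, adjusted p = 0.0063), Mt1 (-3.21, adjusted p = 0.00931) and Gata3 (1.52, adjusted p = 0.011) kept their calls there whichever single library was left out. With a replicate block in place of sex, the comparison called 1 gene in all. In SPF mice Hlx, Cxcl3 and Mt1 rose and Gata3 fell with aCD3. The shares of responding and non-responding GF libraries in these calls therefore cannot be told apart.

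Genes of metabolism, stress and antigen presentation gave no calls between the Lag3-high GF and SPF aCD3 libraries. Over all genes 0.346% were called higher and 0.228% lower, so lists of this size would hold few calls in any case. None of 20 glycolysis and hypoxia genes, 22 of oxidative phosphorylation, 24 of cholesterol and fatty acid synthesis, 27 of the ATF4 response, 22 of ribosome biogenesis, 19 of ER folding, 16 of heat shock and 18 of MHC class I and the immunoproteasome was called. Their medians ran from -0.04 to 0.20 against 0.14 over all genes. Without the minimum difference, all GF libraries lay above SPF in 6 of 22 oxidative phosphorylation genes, the most of these lists. That compares with 14.2% of all genes, and after median of ratios it was 1 of the 22. In cholesterol and fatty acid synthesis it was 0 of 24. None of 29 early T cell receptor response genes, 12 Treg genes, 17 GTPases of the GBP and IRG families, 18 homing genes, 20 of the interleukin 2 receptor family and SOCS, 16 clock genes, 12 glucocorticoid response genes and 21 of the BCL2 family was called either. The medians of these lists ran from 0.01 to 0.25. Of 15 cytotoxic genes Klrg1 was the single one called, and Gzmb, the major granzyme, overlapped at 1651 to 3404 TPM against 3298 to 5917 TPM (difference -0.81).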

How the data were processed

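Transcript abundance was measured in 28 libraries of sorted small intestinal CD4+ T cells, of which 9 are compared here. Per the file headers, the authors computed the deposited TPM values with HOMER's analyzeRepeats.pl over mm10 RefSeq genes, transcripts of a gene condensed. The length column equals end minus start in 99.2% of 25124 rows, so introns count as length. The aligner's settings and the use of strand are not given in the sources used here, so overlapping and antisense genes cannot be told apart. The labels name both a total RNA kit and polyA RNA. A further 26 TPM columns match no sample and were not used.

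Genes with at least 1 TPM in at least 3 libraries (12713) were kept. Values were log2(TPM + 1). Low values were whole multiples of the worth of 1 read, within 0.1 read, which gave the depths; floors of 3 reads cover counting error only. The Lag3-high contrast has no test. Labelled contrasts used limma 3.58.1 (R 4.3.3), fitted on the 2 groups compared, with a trend and sex as covariate, Benjamini-Hochberg adjustment over all genes and a threshold of 0.05. On simulated isotype libraries of even noise the fit recovered 99.5% of 200 changed genes among the 12713. Only genes above 2 TPM were changed there, by 2- or 3-fold in either direction. The simulation held no outlying library and no mix of responding and non-responding ones, so recovery in the real contrasts is not known from it. Promoters are RefSeq's, GRCm38.p6. Alternatives were scaling by median of ratios, TPM without Rn45s and histones, other pseudocounts and filters, male SPF libraries only, other minimum differences, a replicate block and leaving out each library.

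Always named were Lag3, Il10, Ifng, Tbx21, Foxp3, Gata3, Mki67, Il2, Il22, Il17a and Ccl20. To these were added the 12 highest and 12 lowest called genes with a mean of at least 5 TPM, without Gm, Rik, Mir, Snor and pseudogene symbols, histones and sex-linked genes, and up to 4 genes per list. Further genes named were chosen after their values were seen. Members and lists were chosen with earlier results of these data known.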

Additional observations from a re-analysis of the deposited data

Results flagged for a closer look

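In 96 sets of library values checked, 6 held a library far from the others of its group, about as often as the 1 in 20 that chance gives. In SPF aCD3 replicate M1, Cyp1b1 was 5.65 TPM, with 2.77 TPM in the next library, and Calca was 0, with 1.43 TPM in the next. Cyp1b1 in M1 still lay below every Lag3-high GF library. In GF isotype replicate F2, Mt1 was 31.2 TPM with 6.66 TPM in the next library, and Ermn was 1.06 TPM with 0.17 TPM in the next. In SPF isotype, Itgb8 was 0.784 TPM in replicate M2, with 1.07 TPM in the next library, and Gja1 was 4.21 TPM in replicate F3, with 7.39 TPM in the next.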

How the results depend on the processing

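Direction was kept by all 32 genes named by the fixed set and the ranking, under every alternative run. For the called genes among them most alternatives could not have changed the direction, since their groups did not overlap. Only the alternatives that rescaled the libraries could. Tbx21, which was not called, kept its sign at 0.003 after median of ratios, from 0.18 before. The counts of called genes moved more. Against 44 genes higher and 29 lower in Lag3-high GF, a pseudocount of 0.1 gave 119 and 59, a pseudocount of 5 gave 16 and 18, male SPF libraries alone 87 and 82, no minimum difference 1809 and 166, and a minimum of 2 gave 11 and 9. Median of ratios gave 60 lower. Leaving out single libraries gave 44 to 121 higher and 31 to 77 lower. Fewer libraries make it easier not to overlap, so the larger counts follow in part from the rule itself.

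For the isotype libraries, 1837 genes passed limma's test, against 386 after median of ratios (158 higher and 228 lower) and 915 with all 28 libraries in 1 fit, and 1003 to 1931 when single libraries were left out. For all GF against all SPF aCD3, 4550 passed, against 868 after median of ratios (413 and 455), 2736 without Rn45s and histones, and 46 to 6080 with single libraries left out; without SPF replicates M2 and M3 in turn the count was 107 and 320. The cause was not tested. Libraries of the same name did not deviate together from the mean of their group and sex (correlations of -0.083 to 0.074). Each mean holds few libraries, so this check cannot show whether they share more than a name. The replicate block gave 215 genes in isotype libraries and 1 between all GF and all SPF aCD3. Cxcl3 missed the threshold in isotype libraries with that block (adjusted p = 0.0717). For the SPF response the replicate block gave 7817 genes against 8052. Across genes, r of the responses was 0.737 with a pseudocount of 0.1, 0.888 with 5 and 0.794 to 0.832 without single GF libraries, and the slope was 0.684 with a pseudocount of 0.1.

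Levels near 1 TPM, as for Il5, Tnp2, Hlx and Il17re, rest on few reads.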

Other observations

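Receptors outside the lists were also higher in the Lag3-high GF libraries, and their names were chosen after their values were seen. Xcr1, which encodes the receptor of XCL1, was 19.3, 16.9 and 11.9 TPM in GF M1, M2 and M5, compared with 3.92 to 7.03 TPM in SPF aCD3 (difference 1.36), so ligand and receptor were both above SPF in every library. Nmur1, the receptor of neuromedin U, was 7.68, 9.69 and 16.9 TPM against 2.94 to 5.71 TPM (difference 1.16), and here M5 was farthest from SPF. Tbc1d4, a regulator of glucose transporter traffic, was 16.5, 11.7 and 9.28 TPM against 3.85 to 4.74 TPM (difference 1.26).

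Among lower genes outside the lists, S100a6, a calcium-binding protein, was 55.5, 58.2 and 78.6 TPM in M1, M2 and M5 of GF, while SPF aCD3 held 97.1 to 349 TPM (difference -1.43). Cd7, a surface receptor of T and natural killer cells, was 26.6, 21.6 and 37.4 TPM against 41.5 to 164 TPM (difference -1.62). Plac8 was 41.3, 45.6 and 58.2 TPM against 69.3 to 173 TPM (difference -1.40), although in the isotype libraries it was higher in GF than in SPF (log2 change 0.84, limma, adjusted p = 0.0283), a call that median of ratios did not keep (adjusted p = 0.103). Plac8 was thus the single gene of the 29 with opposite calls.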
